A study of Homo sapiens with 120 samples.

Results

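Forebrain and eye field factors are 9 genes measured here in H1 cells, a human embryonic stem cell line: SIX3, SIX6, OTX2, LHX2, HESX1, RAX, FEZF1, FEZF2 and NPTX1. They were taken by gene name, 9 of the 62703 genes in the table, and were followed through 120 libraries of polyadenylated RNA. The first arm held KO, ΔATG and WT cells, the KO and ΔATG lines being edited at LNCPRESS1 (lncPRESS1), which encodes a long non-coding RNA of stem cells. Each line was sampled at day 0 and on days 1 to 5 of 3 protocols, in 48 groups and 96 libraries. BMP4 was used for mesoderm, a kit that inhibits SMAD signalling (SMADi) for neuroectoderm, and another kit for definitive endoderm (Endo). The second arm, 24 libraries in 12 groups, held cells labelled as overexpressing lncPRESS1, lncPRESS1 ΔATG or lncSIRP, or carrying the vector, each sampled at stages called early, middle and late. Each group had 2 libraries, a and b, which are given in that order throughout. They are not stated to come from separate cultures, so the spread between them may be technical. The p-values use a spread shared by all groups of an arm, and not that of the compared libraries alone. How many clones carry each edit, what the ΔATG edit removes beyond its name, what lncSIRP is and which days the stages stand for is not stated in the labels, so a line and its edit cannot be told apart.

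As background, the anterior neural plate forms where Wnt and BMP signals are low, and a set of transcription factors divides it into telencephalon, hypothalamus and eye field. SIX3 and SIX6 are related homeodomain factors of the anterior neural plate, and SIX3 is known to repress Wnt genes there. RAX and LHX2 are homeodomain factors of the eye field, and HESX1 is a homeodomain repressor of the anterior neural plate and pituitary primordium. OTX2 marks forebrain and midbrain, and is also expressed in pluripotent cells and anterior endoderm. FEZF1 and FEZF2 are zinc finger repressors of the early forebrain. NPTX1 encodes neuronal pentraxin 1, a secreted protein that is made by pluripotent stem cells as well as by neurons.

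The members lie on several chromosomes of GRCh38 (gene positions from GENCODE 29) and are protein-coding. SIX3 spans chr2:44941898-44946077 on the plus strand, and the non-coding genes SIX3-AS1 and LINC01833 lie 24 and 2698 bases from it on the other strand. FEZF1 spans chr7:122301394-122310691 on the minus strand and contains the whole of its antisense gene FEZF1-AS1. The libraries keep strand, but whether counting used it is not stated, so reads of FEZF1 and FEZF1-AS1 may not be fully separated. SIX6 (chr14:60508951-60512850, plus) and OTX2 (chr14:56799905-56810479, minus) share a chromosome, as do HESX1 (chr3:57197838-57227606, minus) and FEZF2 (chr3:62369681-62374324, minus). LHX2 lies at chr9:124001670-124033301 on the plus strand, RAX at chr18:59267035-59274086 and NPTX1 at chr17:80467148-80477843, both on the minus strand.

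Upstream sequence was searched because several members moved together. Windows of 250 bases before a RefSeq start (GRCh38.p14) were found for 6 members, 9 windows in all, for SIX6, OTX2, LHX2, HESX1, RAX and FEZF1. The motifs searched on both strands were TAATTA, the core bound by many homeodomains, TAATCC, an OTX-type core, and CTTTGA, a TCF/LEF core; the homeodomain and OTX-type cores share the letters TAAT. Over all 35116 RefSeq windows, 4.35% held TAATTA, 5.62% TAATCC and 11.2% CTTTGA. Of the members' windows 2 held any of them: 1 CTTTGA before SIX6 and 2 copies of TAATTA before the downstream start of HESX1. Printed below, 5′ to 3′ on the gene's strand and without annotated exon bases, are windows of HESX1 and RAX, which fell together in SMADi, and of OTX2, which rose; capitals mark TAATTA, and the other windows printed hold none of the 3 motifs.
HESX1, chr3:57200029-57200228, minus: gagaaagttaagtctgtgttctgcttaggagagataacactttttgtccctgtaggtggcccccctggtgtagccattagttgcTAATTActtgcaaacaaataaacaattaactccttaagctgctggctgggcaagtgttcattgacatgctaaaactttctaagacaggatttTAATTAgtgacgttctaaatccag
RAX, chr18:59273455-59273704, minus: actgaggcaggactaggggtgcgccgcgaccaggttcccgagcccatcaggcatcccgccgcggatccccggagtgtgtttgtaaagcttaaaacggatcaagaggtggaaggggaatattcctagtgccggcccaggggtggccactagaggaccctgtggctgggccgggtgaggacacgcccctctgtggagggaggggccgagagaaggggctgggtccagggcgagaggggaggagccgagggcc
OTX2, chr14:56810480-56810729, minus: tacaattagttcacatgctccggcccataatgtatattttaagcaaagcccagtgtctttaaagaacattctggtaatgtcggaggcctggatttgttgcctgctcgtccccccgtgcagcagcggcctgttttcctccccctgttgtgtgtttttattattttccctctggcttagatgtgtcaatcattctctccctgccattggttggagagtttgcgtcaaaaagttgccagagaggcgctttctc
The windows differ in base composition: G and C make up 43.6% of the full window of this HESX1 start, 66.4% of that of RAX and 47.2% of that of OTX2, against a median of 58.0% over all windows. The windows printed for HESX1 and RAX lie inside their genes. The other HESX1 window, before its upstream start, held 79.2% G and C and none of the motifs.

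Library totals of estimated counts lay between 38298603 and 71219834 in the first arm and between 40113893 and 65466595 in the second. Levels are given as CPM, counts scaled to a common library total with TMM factors. A gene was called when the edgeR quasi-likelihood F test gave an adjusted p below 0.05 (Benjamini-Hochberg, two-sided, over all genes tested in that comparison). The ± after a log2 fold change is a standard error derived from that test: the size of the fold change divided by the square root of F. At very low counts it can understate the uncertainty. It can do so too where the compared libraries differ more between themselves than those of other groups, since the spread is shared by all groups. LNCPRESS1 itself measured 5.60 to 13.2 CPM at day 0 in KO and 35.2 to 53.1 CPM in ΔATG, against 21.4 to 40.6 CPM in WT. ΔATG did not keep that level through SMADi. At day 4 of SMADi LNCPRESS1 had 0.0375 and 0.124 CPM in KO and 0.113 and 0.105 CPM in ΔATG, against 5.95 and 6.20 CPM in WT. By day 5 it had 0.0523 and 0 CPM in KO and 0 and 0 CPM in ΔATG, against 1.61 and 1.70 CPM in WT. Over the days of BMP4 LNCPRESS1 measured 3.23 to 13.7 CPM in KO and 10.5 to 17.4 CPM in ΔATG, against 10.4 to 23.3 CPM in WT. In Endo it was low in all lines, at 0 to 1.88 CPM in KO and 0 to 1.84 CPM in ΔATG, against 0 to 1.65 CPM in WT. All 9 members passed the filter on low counts in the differentiation arm. SIX6 reached the level that the filter asks for in 6 libraries, all of them WT libraries of SMADi, so it had to differ there to be tested at all. SIX6 is therefore given as counts with no test in SMADi, and members called in SMADi are counted over the other 8. LHX2 and FEZF2 reached that level in 67 and 26 of 96 libraries. FEZF2 was too low to be tested in the overexpression arm, which leaves 8 members there; SIX6 and LHX2 reached the level in 2 and 6 of its 24 libraries, for LHX2 mainly those where it is high. All libraries are bulk RNA, in which fewer cells of a type and less RNA per cell cannot be told apart.

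At day 0, before any protocol, SIX3 was the member in which both edited lines stood apart. SIX3 had 2 and 1 counts in KO (0.0335 and 0.0206 CPM) and 1 and 0 counts in ΔATG (0.0151 and 0 CPM), against 25 and 26 counts in WT (0.423 and 0.457 CPM). The 4 edited libraries lay below both WT libraries, at a level where SIX3 is barely detected, and SIX3 was called lower in KO (adjusted p = 0.0163) and in ΔATG (adjusted p = 0.00388). NPTX1 was abundant in undifferentiated cells, at 814 and 862 CPM in KO and 570 and 604 CPM in ΔATG, against 609 and 451 CPM in WT. It was called higher in KO (log2 fold change 0.66 ± 0.19, adjusted p = 0.0306). Both ΔATG libraries fell between the WT libraries, and NPTX1 was not called there (0.15 ± 0.19, adjusted p = 0.783). Thus 2 of 9 members were called in KO, against 4.89% of all genes tested, and 1 of 9 in ΔATG, against 5.5%. Between the edited lines only OTX2 was called, at 19.7 and 20.8 CPM in ΔATG against 12.2 and 15.3 CPM in KO (0.57 ± 0.13, adjusted p = 0.00352; 4.07% of genes called). With a and b as a replicate block SIX3 was no longer called in KO (adjusted p = 0.116) or ΔATG (adjusted p = 0.0682), while NPTX1 was called lower in ΔATG than in KO (-0.51, adjusted p = 0.00961). Leaving out 1 library ended the SIX3 call in KO (WT a or either KO library) and in ΔATG (WT a or ΔATG a), that of NPTX1 in KO (WT b or KO b) and that of OTX2 (KO a).

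In unedited cells each day of the 3 protocols was tested against day 0, and no protocol was tested against another. By day 5 of SMADi 7 of the 8 members counted were higher than at day 0 and NPTX1 was lower, with 53.5% of all genes called. The sample names number the SMADi libraries after the overexpression arm and those of day 0 before it. Whether they were handled together is not stated, so these differences may hold more than the protocol. SIX3 in WT measured 0.423 and 0.457 CPM at day 0, 1.27 and 1.76 at day 1, 4.26 and 3.72 at day 2, 97.5 and 93.7 at day 3, 367 and 347 at day 4 and 375 and 358 CPM at day 5 (day 5 against day 0, 9.70 ± 0.26 log2). Its steepest rise thus fell between days 2 and 4, and days 4 and 5 overlapped. OTX2 dipped to 9.37 and 7.77 CPM at day 1, stood at 321 and 310 CPM at day 3 and was 257 and 257 CPM at day 5. FEZF1, at 1.85 and 1.00 CPM on day 0, reached 70.5 and 70.4 CPM at day 3 and 274 and 277 CPM at day 5. The eye field factor RAX came later. RAX stood at 1.29 and 1.76 CPM on day 3, 17.4 and 19.2 CPM on day 4 and 72.3 and 77.0 CPM on day 5. LHX2 was the last to rise, with 0.154 and 0.143 CPM on day 3, 0.439 and 1.15 CPM on day 4 and 7.20 and 7.24 CPM on day 5. SIX6, at 4 and 5 counts on day 0, had 32 and 62 counts on day 3 and 102 and 107 counts on day 5 (2.00 and 1.98 CPM). HESX1 was highest at day 4 (48.7 and 49.0 CPM) and measured 33.9 and 40.0 CPM at day 5. FEZF2 reached 3.81 and 5.14 CPM at day 5, against 0.0169 and 0.0351 CPM at day 0.

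NPTX1 followed a course of its own in SMADi. In WT it measured 609 and 451 CPM at day 0, 9.15 and 8.68 at day 1, 645 and 633 at day 2, 357 and 263 at day 3, 24.4 and 22.9 at day 4 and 10.9 and 9.55 CPM at day 5. It was thus low at day 1, above both day 0 libraries on day 2 and low again by day 4. In BMP4 and Endo it was low from day 1 on without such a return: 0.823 and 0.665 CPM at day 5 of BMP4 and 0.679 and 0.361 CPM at day 5 of Endo.

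In WT cells under BMP4, 5 members were called higher and 1 lower at day 5 against day 0 (45% of genes called). SIX3 reached 24.5 and 26.3 CPM (5.84 ± 0.27) and OTX2 51.3 and 46.8 CPM (1.63 ± 0.12). RAX stayed at 0.727 and 0.782 CPM and was not called (0.35 ± 0.50, adjusted p = 0.598), and LHX2 was not called without the day 0 library a. In Endo, 2 were called higher and 4 lower (63.4% of genes called). OTX2 rose to 742 and 745 CPM at day 5 (5.55 ± 0.13), above its WT level in SMADi, and SIX3 to 31.1 and 31.5 CPM (6.15 ± 0.27). FEZF1 was nearly absent at day 5 of Endo, with 0 and 0.0190 CPM in WT, and the call of SIX6 there was lost without either day 5 library. OTX2 is a known gene of anterior definitive endoderm. The endoderm and organizer list, which holds genes such as CER1 and SOX17, summed to 19531 and 18853 CPM in these WT libraries, against 178 and 170 CPM in WT at day 5 of SMADi, so the labelled endoderm held its defining genes.

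**Figure D1:**
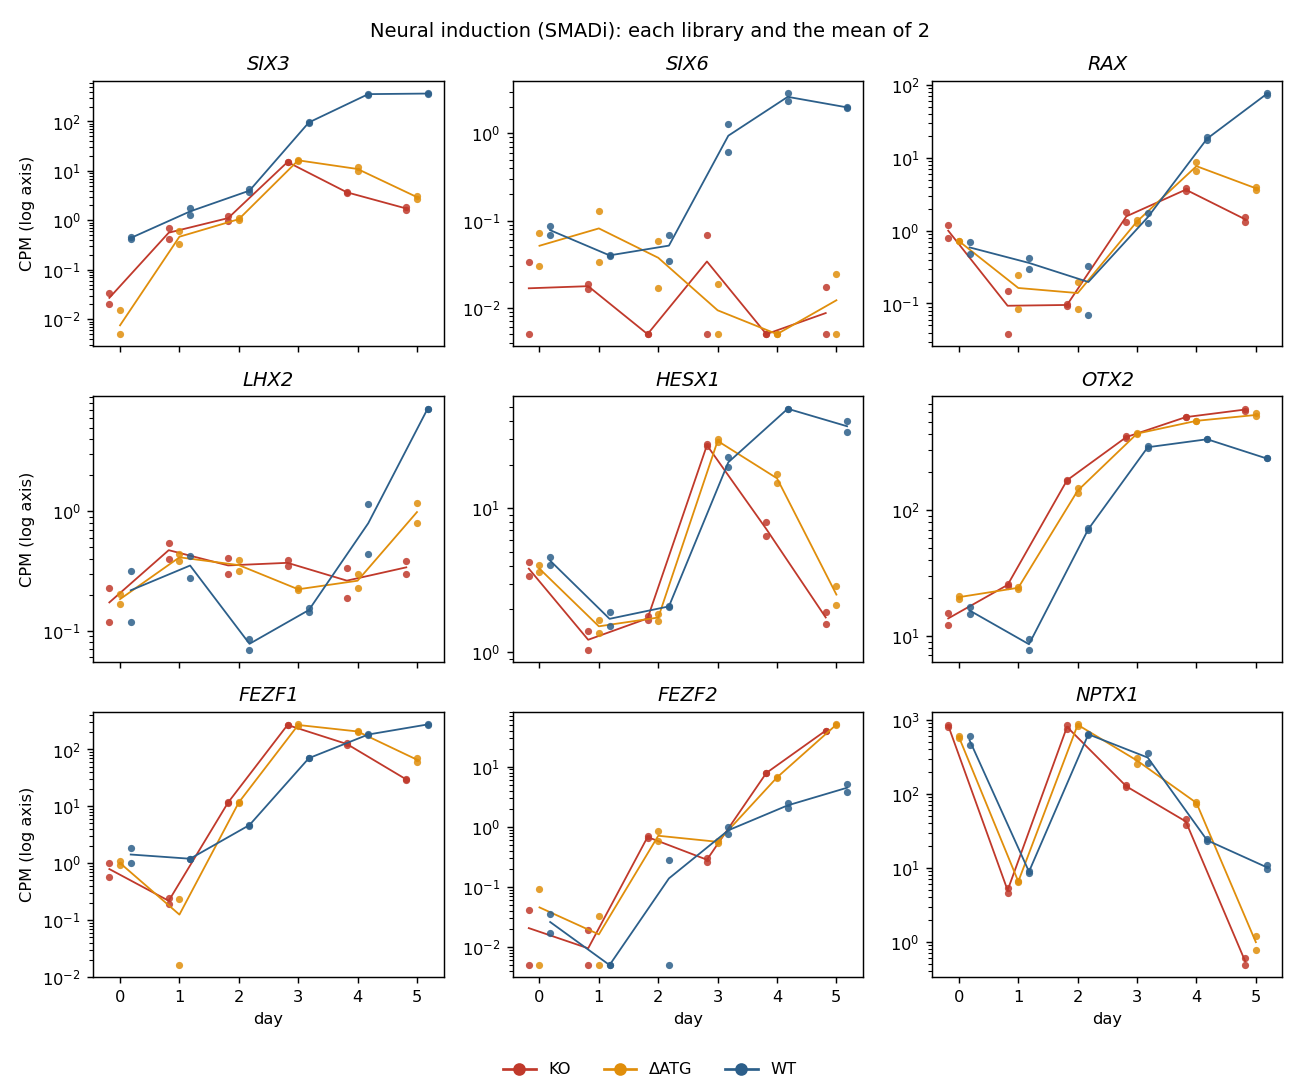
CPM of each member (log axis, 0 drawn at 0.005) by day of SMADi in KO (red, left), ΔATG (orange, middle) and WT (blue, right); points are libraries, lines join the means of 2. From day 4 the WT points of SIX3, RAX and HESX1 lie above both edited lines (SIX3 at day 5: 1.59 and 1.89 CPM in KO, 2.74 and 3.17 in ΔATG, 375 and 358 in WT), while those of OTX2 and FEZF2 lie below them.

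At day 5 of SMADi both edited lines held less SIX3, SIX6, RAX, LHX2 and HESX1 than WT, and more OTX2 and FEZF2. Besides SIX6, all 8 other members were called in each line at day 5, 6 lower and 2 higher. Of all genes tested, 35.2% were called in KO (19.7% lower) and 32.3% in ΔATG (18.4% lower). The members called on days 1 to 4 in order numbered 4, 5, 5 and 8 in KO, against 8.64%, 14.7%, 30.6% and 36.1% of genes, and 3, 5, 4 and 7 in ΔATG, against 10.3%, 16.8%, 28.4% and 34.3%. The median log2 fold change of these 8 was -4.31 in KO and -3.17 in ΔATG, while the median over all genes was -0.01 and 0.00.

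SIX3 showed the deepest fall among members with counts in both groups. At day 4 SIX3 had 3.82 and 3.56 CPM in KO and 9.79 and 12.1 CPM in ΔATG, against 367 and 347 CPM in WT. At day 5 it had 1.59 and 1.89 CPM in KO and 2.74 and 3.17 CPM in ΔATG, against 375 and 358 CPM in WT. The groups did not overlap on any of days 1 to 5, and SIX3 was called lower on each of them in both lines, though the day 1 call was lost in KO without WT b or KO a, in ΔATG without WT b or ΔATG b, and in both with the replicate block (adjusted p = 0.13 and 0.0591). On the log2 scale the difference at day 5 was -7.72 ± 0.22 in KO (adjusted p = 2.96e-36) and -6.94 ± 0.21 in ΔATG (adjusted p = 6.01e-35). The edited lines were not without induction. From day 0 to day 3 SIX3 climbed to 14.9 and 15.3 CPM in KO and 16.6 and 16.2 CPM in ΔATG, against 97.5 and 93.7 CPM in WT. It then dropped in the edited lines while it went on rising in WT.

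SIX6, the relative of SIX3, had 0 and 0 counts at day 4 and 1 and 0 counts at day 5 in KO, and the same counts in ΔATG, against 152 and 117 counts at day 4 and 102 and 107 counts at day 5 in WT. Because the filter already required such a gap, no p is given for it. Its fitted fold changes rest on a small added count and are not given.

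RAX, which is needed for eye formation in vertebrates, was not called up to day 3 by edgeR. At day 1 its fold change in KO was -1.87 (adjusted p = 0.273), and the DESeq2 Wald test called it (adjusted p = 0.033). At day 3 it had 1.32 and 1.82 CPM in KO and 1.26 and 1.42 CPM in ΔATG, against 1.29 and 1.76 CPM in WT, and the groups overlapped. At day 5 RAX had 1.53 and 1.32 CPM in KO and 3.62 and 3.99 CPM in ΔATG, against 72.3 and 77.0 CPM in WT. All 4 edited libraries were far below WT (-5.71 ± 0.24 in KO and -4.28 ± 0.22 in ΔATG). LHX2 changed side. At day 2 LHX2 was higher in the edited lines, at 0.407 and 0.296 CPM in KO and 0.389 and 0.318 CPM in ΔATG, against 0.0856 and 0.0692 CPM in WT. At day 5 LHX2 had 0.297 and 0.380 CPM in KO and 1.17 and 0.791 CPM in ΔATG, against 7.20 and 7.24 CPM in WT (-4.40 ± 0.29 and -2.92 ± 0.25). The day 2 call, at under 0.5 CPM, was lost without any 1 of its libraries, whereas the day 5 call was not.

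HESX1 crossed over as well. At day 3 HESX1 had 27.8 and 26.8 CPM in KO and 29.9 and 28.6 CPM in ΔATG, against 19.1 and 22.5 CPM in WT, a small excess that was called in both lines (0.39 ± 0.12 and 0.49 ± 0.12; lost in KO without WT a). At day 5 HESX1 had 1.92 and 1.57 CPM in KO and 2.89 and 2.14 CPM in ΔATG, against 33.9 and 40.0 CPM in WT. The fall measured -4.41 ± 0.15 in KO and -3.91 ± 0.15 in ΔATG.

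OTX2 ran the other way. OTX2 had 174 and 170 CPM in KO and 150 and 135 CPM in ΔATG at day 2, against 72.2 and 68.9 CPM in WT. At day 5 it had 617 and 640 CPM in KO and 554 and 585 CPM in ΔATG, against 257 and 257 CPM in WT (1.29 ± 0.11 and 1.15 ± 0.11). It was higher in all 4 edited libraries on each of days 1 to 5, and called on each of these days except day 3 in KO (0.27 ± 0.11, adjusted p = 0.0527), where limma voom, the replicate block, unrounded counts and a fit of the compared groups only did call it (adjusted p between 0.00672 and 0.0459); the day 3 call in ΔATG was lost without WT b.

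The related zinc finger genes parted. FEZF2 at day 5 had 40.0 and 39.9 CPM in KO and 49.2 and 51.5 CPM in ΔATG, against 3.81 and 5.14 CPM in WT, with no overlap (3.16 ± 0.14 and 3.49 ± 0.14). At day 3 it had been lower in KO, at 0.260 and 0.306 CPM against 0.770 and 0.982 CPM in WT (-1.61 ± 0.39). FEZF1 changed side more than once. At day 1 FEZF1 was lower in the edited lines, with 0.190 and 0.247 CPM in KO and 0.0162 and 0.234 CPM in ΔATG, against 1.19 and 1.21 CPM in WT. It then ran ahead of WT. At day 3 FEZF1 had 265 and 275 CPM in KO and 281 and 259 CPM in ΔATG, against 70.5 and 70.4 CPM in WT (1.94 ± 0.15 in KO). At day 5 FEZF1 had 29.1 and 30.4 CPM in KO and 71.8 and 60.5 CPM in ΔATG, against 274 and 277 CPM in WT (-3.21 ± 0.16 and -2.06 ± 0.15). FEZF1-AS1, which FEZF1 contains, measured 76.8 and 75.7 CPM in KO and 159 and 133 CPM in ΔATG at day 5, against 248 and 270 CPM in WT.

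NPTX1 alternated. NPTX1 at day 4 had 46.4 and 38.6 CPM in KO and 77.9 and 73.4 CPM in ΔATG, against 24.4 and 22.9 CPM in WT, higher in both lines (0.84 ± 0.21 and 1.68 ± 0.21). At day 5 it had 0.488 and 0.612 CPM in KO and 1.20 and 0.791 CPM in ΔATG, against 10.9 and 9.55 CPM in WT (-4.21 ± 0.38 and -3.41 ± 0.36).

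A joint test asked whether a difference changed between days in size or in sign. It was called for 8 of 8 members in KO (32.7% of all genes) and for 8 of 8 in ΔATG (29.5%), SIX3 and OTX2 included, which kept their sign. Averaged over days 1 to 5, 6 of the 8 members were called in KO (5 lower, 1 higher; 45.6% of genes called) and 7 in ΔATG (5 lower, 2 higher; 45.2%). Some members changed sign between days, and their averages lie closer to 0 than the day 5 differences: that of LHX2 was -0.41 ± 0.29 in KO and -0.31 ± 0.29 in ΔATG, called in neither. At day 5 each of the 8 calls held in both lines when any 1 library was left out and under every other setting tried. For the ΔATG average, those of FEZF1 and FEZF2 were lost without the day 1 ΔATG library a, of NPTX1 without the day 5 ΔATG library b and of RAX without the day 2 WT library a. That of FEZF1 was also lost with the replicate block (adjusted p = 0.0805) and that of FEZF2 with a fit of the compared groups only (adjusted p = 0.066).

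For several members ΔATG differed from KO as well. At day 4, 5 of 8 members were called higher in ΔATG than in KO, against 0.503% of all genes (0.228% higher). SIX3, for example, had 9.79 and 12.1 CPM in ΔATG against 3.82 and 3.56 CPM in KO (1.57 ± 0.20, adjusted p = 3.3e-07), HESX1 14.9 and 17.2 against 6.37 and 7.95 CPM (1.17 ± 0.13), and RAX 8.68 and 6.62 against 3.80 and 3.49 CPM (1.07 ± 0.24). FEZF1 and NPTX1 made up the 5. The calls of SIX3 and HESX1 held without any 1 library, while those of NPTX1 (any library), RAX (all but ΔATG b) and FEZF1 (KO b or ΔATG b) did not, and the DESeq2 Wald test did not call these 3. At day 5 edgeR called FEZF1 (1.15 ± 0.15) and RAX (1.42 ± 0.31; 1.03% of genes called), RAX not without KO a, KO b or ΔATG b, and FEZF2 was called with the replicate block (0.33, adjusted p = 0.00314). Over days 1 to 5 the called members were HESX1 (0.42 ± 0.08) and NPTX1 (0.65 ± 0.15), 2 of 8 against 1.07% of genes. The NPTX1 call was lost without the day 5 ΔATG library a. The difference of ΔATG from KO depended on the day for SIX3, HESX1 and FEZF1, 3 of 8 members (0.639% of genes).

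**Figure D2:**
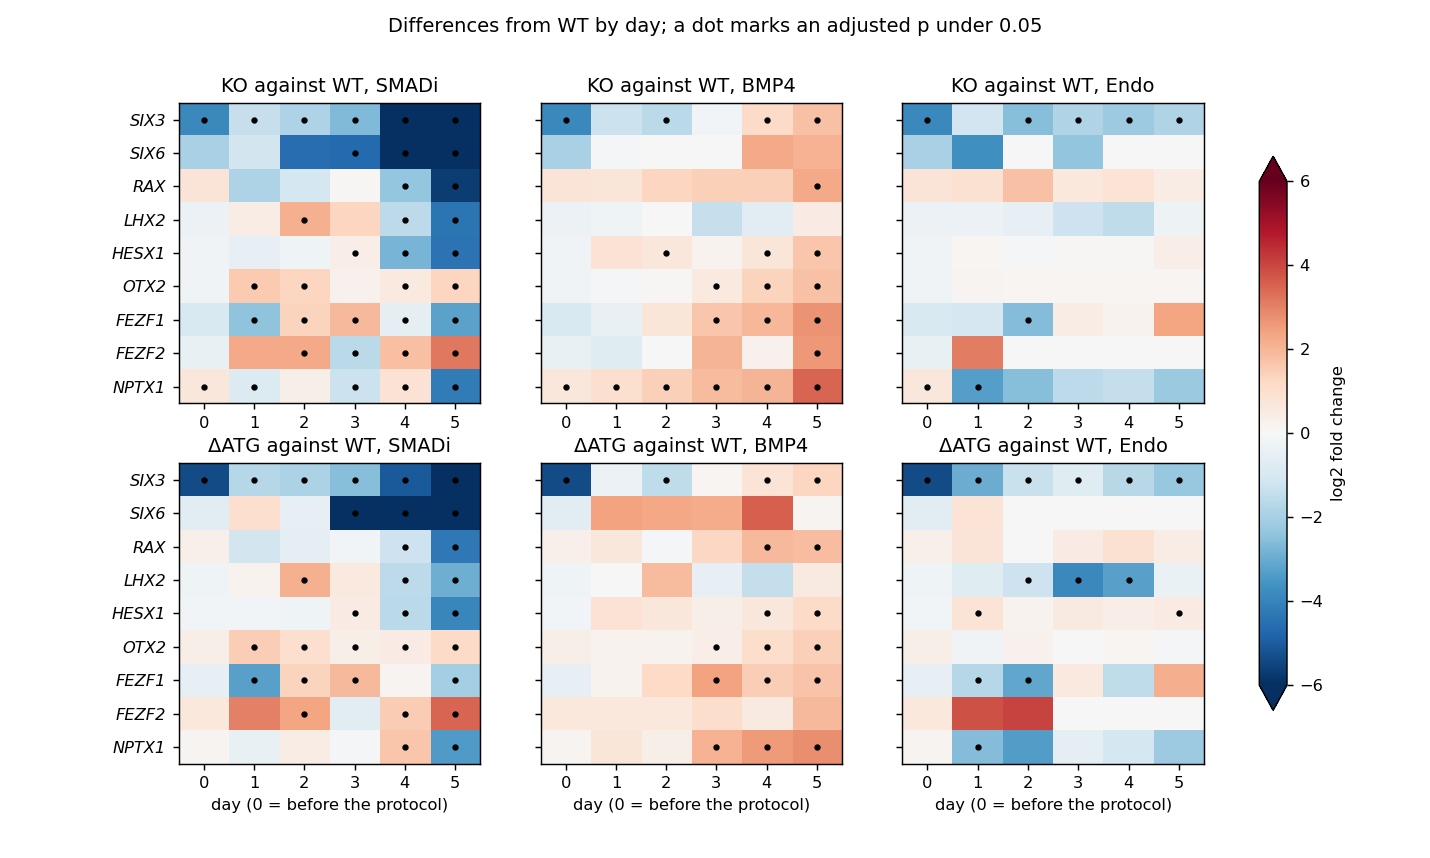
Log2 fold change (colour) of each member against WT by day, for KO (top) and ΔATG (bottom) in SMADi, BMP4 and Endo, with day 0 repeated in each panel; dots mark an adjusted p under 0.05 and colours saturate at 6. In SMADi day 5 all members carry a dot, with 6 of the 8 besides SIX6 lower (the filter let SIX6 in only through its WT libraries), while in BMP4 day 5 the dotted members are all higher. Fold changes of members at or near 0 counts (SIX6 and FEZF2 outside SMADi) depend on a small added count.

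Of 24 other forebrain and eye field genes, 11 were higher and 7 lower in KO at day 5 of SMADi, and 10 were higher and 6 lower in ΔATG (median log2 fold change 0.56 and 0.54, beside -0.01 and 0.00 over all genes). BARHL2, a homeobox gene of the diencephalon, had the largest rise (11.29 ± 0.64 in KO and 10.97 ± 0.68 in ΔATG), and SIX3-AS1 the deepest fall (-7.99 ± 0.31 and -9.01 ± 0.37). The whole list summed to 1178 and 1240 CPM in KO, so a rise of that size starts from a low WT level, where folds are imprecise. PAX6, a shared eye field and forebrain factor, had 365 and 389 CPM in KO and 305 and 335 CPM in ΔATG, against 139 and 161 CPM in WT. PAX6 was chosen after its values were seen. The edited lines had less SIX3 and RAX but more PAX6. Among 14 early neuroectoderm genes 9 were higher and 3 lower in each line (median 1.05 in KO and 1.08 in ΔATG), with HES5, a Notch target of neural progenitors, at 8.49 ± 0.19 in KO and 8.31 ± 0.19 in ΔATG. Of 17 tested midbrain, hindbrain and spinal cord genes 3 were higher and 5 lower in each line (median -0.62 and -0.09). WNT1, a Wnt ligand of the dorsal midbrain, rose by 8.63 ± 0.27 log2 in KO and 7.44 ± 0.29 in ΔATG and EN1, a midbrain and hindbrain homeobox gene, by 7.23 ± 0.67 and 6.64 ± 0.77, while PAX5 fell (-6.25 ± 0.25 and -4.59 ± 0.21). That list summed to 81.7 and 77.9 CPM in KO, so the rises of WNT1 and EN1 also start from low WT levels. Of 10 antagonists of Wnt and BMP, 4 were higher and 4 lower in KO and 3 and 4 in ΔATG (median 0.12 and -0.16), with DKK1 highest (3.30 ± 0.37 and 3.22 ± 0.37) and FRZB lowest (-2.49 ± 0.10 and -2.15 ± 0.10).

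Markers of other cell states moved beside the members. At day 5 of SMADi 7 of 8 pluripotency markers were lower in each edited line, the list summing to 3605 and 3540 CPM in KO and 3879 and 3795 CPM in ΔATG, against 5275 and 5239 CPM in WT, with no marker at 0 counts. POU5F1, the core pluripotency factor, also chosen after its values were seen, had 20.8 and 19.1 CPM in KO and 19.8 and 20.8 CPM in ΔATG, against 135 and 137 CPM in WT. Of 10 endoderm and organizer markers 3 were lower and 1 higher in KO and 2 lower and 1 higher in ΔATG, with sums of 84.9 and 87.2 CPM in KO and 72.8 and 72.0 CPM in ΔATG, against 178 and 170 CPM in WT; 1 of the list was at 0 counts in KO and 2 each in ΔATG and WT. HHEX, one of that list, was at 0.0349 and 0.0496 CPM in KO and 0.0489 and 0.0989 CPM in ΔATG, against 18.6 and 20.4 CPM in WT. The 8 mesoderm markers summed to 10.2 and 9.94 CPM in KO and 7.39 and 8.39 CPM in ΔATG, against 11.9 and 11.7 CPM in WT (1 higher and 3 lower in each line). Of 9 neural crest and placode markers 4 were higher and 5 lower in KO and 3 and 5 in ΔATG, the list summing to 71.3 and 73.1 CPM in KO and 44.5 and 51.6 CPM in ΔATG, against 60.2 and 60.7 CPM in WT. Their part in the members' differences was not tested.

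Under BMP4 the members that were called by the end of the course were all higher, including 5 that were lower in SMADi (SIX3, HESX1, RAX, FEZF1 and NPTX1). At day 5 in KO 7 of 9 members were called higher and none lower, against 22.3% of genes called (9.51% higher). In ΔATG 6 were higher and none lower, against 11.1% (4.25% higher). The members' median log2 fold change was 2.07 in KO and 1.41 in ΔATG, beside 0.00 over all genes in both.

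FEZF1, OTX2 and SIX3 were among those called in both lines. FEZF1 at day 5 of BMP4 had 127 and 81.9 CPM in KO and 47.1 and 61.0 CPM in ΔATG, against 16.5 and 16.1 CPM in WT (2.68 ± 0.16 and 1.73 ± 0.16). OTX2 had 198 and 138 CPM in KO and 118 and 143 CPM in ΔATG, against 51.3 and 46.8 CPM in WT (1.77 ± 0.11 and 1.41 ± 0.11). SIX3 had 113 and 60.5 CPM in KO and 55.7 and 66.4 CPM in ΔATG, against 24.5 and 26.3 CPM in WT (1.77 ± 0.16 and 1.27 ± 0.16). For none of these did the edited and WT libraries overlap, although the KO libraries differed widely between themselves.

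HESX1 had 23.4 and 18.5 CPM in KO and 12.5 and 17.5 CPM in ΔATG, against 6.39 and 7.12 CPM in WT (1.64 ± 0.13 and 1.15 ± 0.13). RAX had 5.14 and 1.99 CPM in KO and 3.06 and 2.33 CPM in ΔATG, against 0.727 and 0.782 CPM in WT (2.28 ± 0.34 and 1.85 ± 0.36). NPTX1 had 10.6 and 6.20 CPM in KO and 3.71 and 7.01 CPM in ΔATG, against 0.823 and 0.665 CPM in WT (3.48 ± 0.36 and 2.80 ± 0.39). For these members too, all 4 edited libraries lay above both WT libraries. FEZF2 was low, at 0.293 and 0.313 CPM in KO and 0.235 and 0.142 CPM in ΔATG against 0.0549 and 0.0391 CPM in WT, and was called by edgeR in KO (2.59 ± 0.72) but not in ΔATG (1.95 ± 0.81, adjusted p = 0.126), where the DESeq2 Wald test called it (adjusted p = 0.0401). LHX2 was called in neither line (0.47 ± 0.33 and 0.52 ± 0.34). The calls at day 5 of BMP4 against WT held in both lines when any 1 library was left out.

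**Figure D3:**
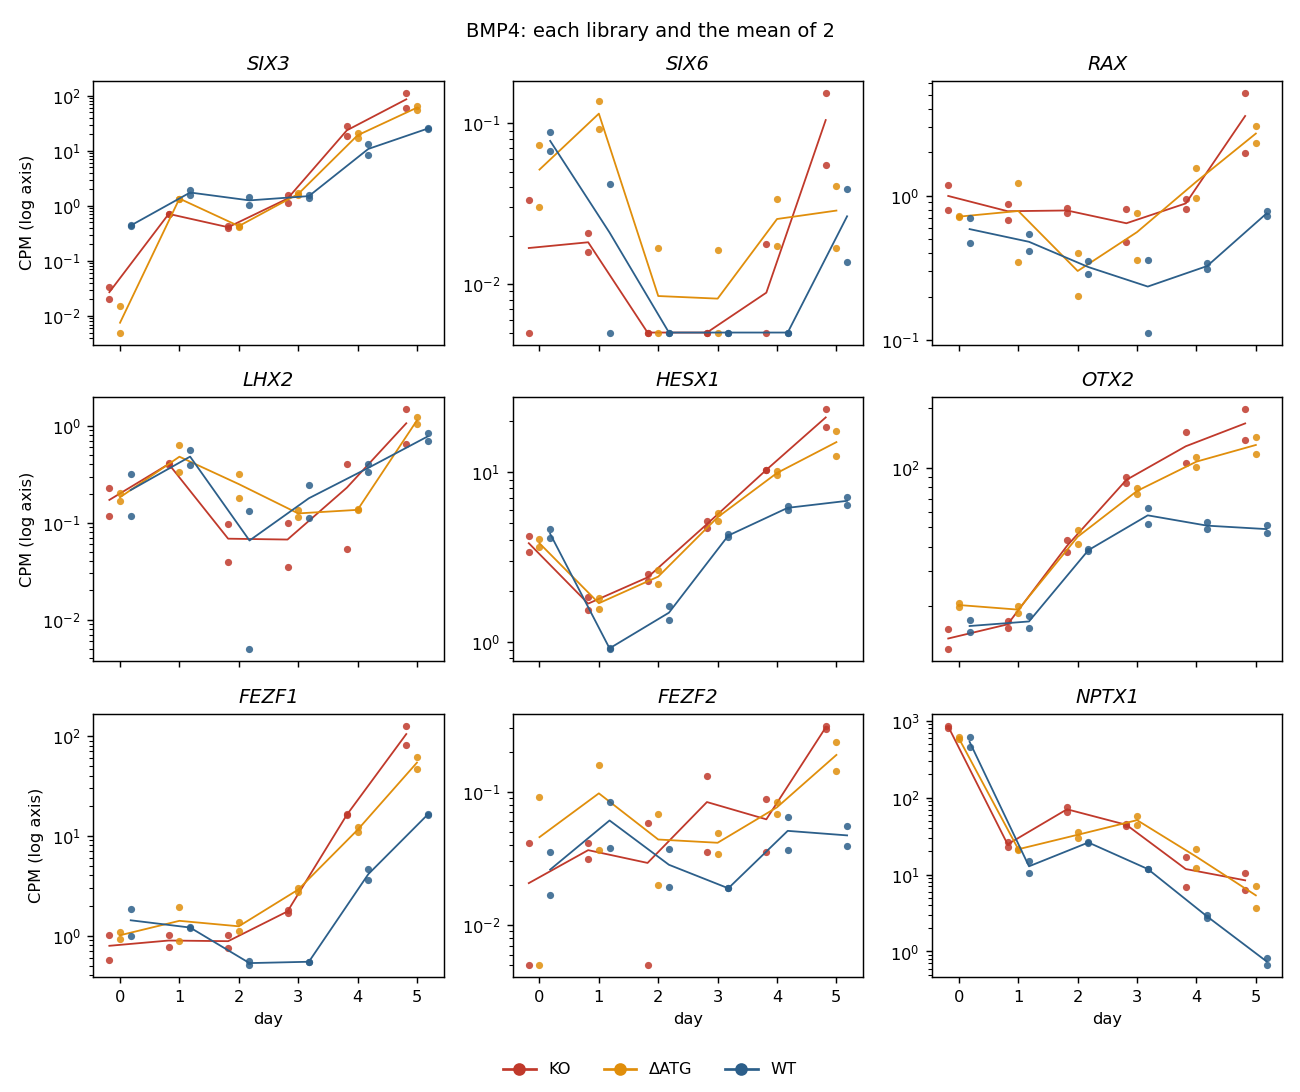
CPM of each member (log axis, 0 drawn at 0.005) by day of BMP4 in KO (red, left), ΔATG (orange, middle) and WT (blue, right); points are libraries, lines join the means of 2. By day 5 the edited lines lie above WT for SIX3, RAX, HESX1, OTX2, FEZF1 and NPTX1 (FEZF1: 127 and 81.9 CPM in KO, 47.1 and 61.0 in ΔATG, 16.5 and 16.1 in WT).

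SIX3 crossed from below to above WT under BMP4. At day 2 SIX3 had 0.389 and 0.431 CPM in KO and 0.439 and 0.421 CPM in ΔATG, against 1.47 and 1.05 CPM in WT, and was called lower in both lines. Both day 2 calls were lost with the replicate block (adjusted p = 0.146 in KO and 0.215 in ΔATG). They were also lost with limma voom (adjusted p = 0.0874 and 0.188) and a fit of the compared groups only (adjusted p = 0.0673 and 0.315). SIX3 was not called in ΔATG when any 1 of the compared libraries was left out, nor in KO without WT a or KO a. At day 4 it had 28.5 and 18.8 CPM in KO and 17.5 and 21.0 CPM in ΔATG, against 8.41 and 13.3 CPM in WT, and was called higher in both (1.13 and 0.83 log2). No day 4 call in BMP4 remained in either line when only the compared groups were fitted. Its mean over days 1 to 5 was accordingly near 0 (-0.03 ± 0.14 in KO and 0.06 ± 0.14 in ΔATG). Over the 5 days 5 members were called higher in each line, FEZF1, HESX1, NPTX1, OTX2 and RAX, against 28.7% of genes called in KO (13.3% higher) and 17% in ΔATG (8.19% higher). The difference depended on the day for 5 of 9 members in KO (10.4% of genes) and 4 of 9 in ΔATG (2.27%). Those called on days 2 to 4 in order numbered 3, 3 and 5 in KO, against 8.2%, 9.86% and 15.6% of genes, and 1, 3 and 6 in ΔATG, against 2.44%, 5.6% and 5.12%.

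KO and ΔATG were also compared in BMP4. Over days 1 to 5 no member was called between them by edgeR, though 13.6% of genes were. NPTX1 alone had an unadjusted p under 0.05, and the share of all genes at that threshold was not taken. NPTX1 was called lower with the replicate block (-0.25, adjusted p = 0.0335). At day 5, 4 members were called lower in ΔATG than in KO (FEZF1 -0.95 ± 0.15, SIX3 -0.51 ± 0.15, HESX1 -0.49 ± 0.12 and OTX2 -0.36 ± 0.11), against 3.63% of genes (1.27% lower). Without KO library a, the higher of the KO libraries, SIX3 was level (0.01), and OTX2 (-0.08) and HESX1 (-0.31) were not called. Without ΔATG library a only FEZF1 of the 4 was called. None of the 4 calls remained when only the compared groups were fitted (adjusted p between 0.122 and 0.437). The DESeq2 Wald test did not call SIX3 (adjusted p = 0.111). With no filter on low counts edgeR called neither SIX3 (adjusted p = 0.0633) nor OTX2 (adjusted p = 0.0545). The difference of ΔATG from KO depended on the day for FEZF1 and NPTX1, 2 of 9 members (1.32% of genes).

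Pluripotency and mesoderm genes moved beside the members in BMP4. At day 5, 4 of 8 pluripotency markers were higher and none lower in each line. Their sum was 5744 and 5345 CPM in KO and 5273 and 5254 CPM in ΔATG, against 4074 and 3762 CPM in WT, with none at 0 counts. Of 8 mesoderm markers 7 were lower in KO and 6 in ΔATG, summing to 111 and 174 CPM in KO and 293 and 241 CPM in ΔATG, against 446 and 527 CPM in WT. Of 10 endoderm and organizer markers 7 were lower and 1 higher in KO and 6 lower and 1 higher in ΔATG, with sums of 65.0 and 73.6 CPM in KO and 85.1 and 79.8 CPM in ΔATG, against 165 and 204 CPM in WT. SOX2, a pluripotency and neural gene, had 413 and 338 CPM in KO and 242 and 271 CPM in ΔATG, against 147 and 124 CPM in WT. Their part in the members' rises was not tested. Of the 24 other forebrain and eye field genes 7 were higher and 3 lower in KO and 3 and 3 in ΔATG (median -0.09 and -0.20), and of 14 early neuroectoderm genes 6 were higher in KO and 5 in ΔATG, with none lower (median 0.33 and 0.46). EMX2, a homeobox gene of the cortex, was among those that rose in KO (2.59 ± 0.61) and LHX5, a homeobox gene of the anterior forebrain, among those that rose in ΔATG (1.76 ± 0.16). EMX1, another homeobox gene of the cortex, fell in both (-2.01 ± 0.34 in KO and -1.80 ± 0.34 in ΔATG), as did the T-box gene TBX3 (-1.98 ± 0.20 and -1.09 ± 0.19).

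The difference between the protocols was tested directly, as the mean over days 1 to 5 of edited against WT in BMP4 minus the same in SMADi. Without SIX6 it was called for 6 of 8 members in KO (42% of all genes) and for 6 of 8 in ΔATG (35.7%). SIX3 differed by 4.02 ± 0.25 in KO and 3.69 ± 0.23 in ΔATG, RAX by 3.61 ± 0.40 and 2.59 ± 0.39, NPTX1 by 2.99 ± 0.17 and 2.09 ± 0.17, HESX1 by 2.34 ± 0.12 and 1.84 ± 0.11 and FEZF1 by 1.91 ± 0.19 and 1.78 ± 0.19, all more positive in BMP4. OTX2, higher in the edited lines in both protocols, differed slightly the other way (-0.26 ± 0.07 and -0.24 ± 0.07). LHX2 and FEZF2 were called in neither line.

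In Endo SIX3, LHX2 and NPTX1 were lower in both edited lines over the 5 days. SIX3 at day 5 had 8.26 and 9.50 CPM in KO and 6.67 and 6.22 CPM in ΔATG, against 31.1 and 31.5 CPM in WT (-1.82 ± 0.17 and -2.28 ± 0.18). All edited libraries were below WT on each of days 1 to 5, and SIX3 was called lower on each day except day 1 in KO; the day 3 call in ΔATG was lost with the replicate block (adjusted p = 0.0868). Over the 5 days its difference was -1.90 ± 0.12 in KO and -1.81 ± 0.13 in ΔATG. OTX2, abundant in this protocol, had 810 and 818 CPM in KO and 690 and 676 CPM in ΔATG at day 5, against 742 and 745 CPM in WT. KO lay slightly above WT and ΔATG slightly below (0.13 ± 0.11 and -0.12 ± 0.11, called in neither).

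LHX2 peaked at day 2 of Endo in all lines, at 1.98 and 2.01 CPM in KO and 0.967 and 1.39 CPM in ΔATG, against 2.32 and 3.36 CPM in WT. At day 3 LHX2 had 0.565 and 0.354 CPM in KO and 0.147 and 0.0161 CPM in ΔATG, against 0.860 and 1.37 CPM in WT. Over the 5 days it was lower in both lines (-0.80 ± 0.24 in KO and -1.90 ± 0.30 in ΔATG), and lower in ΔATG than in KO (-1.11 ± 0.35, adjusted p = 0.0196; lost without the day 4 KO library a, the day 3 ΔATG library b or the day 4 ΔATG library a). FEZF1 at day 2 had 0.290 and 0.0346 CPM in KO and 0.107 and 0.108 CPM in ΔATG, against 0.870 and 1.08 CPM in WT, called lower in both, in KO not without library b. SIX6 and FEZF2 had at most 4 counts in any Endo library.

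Over days 1 to 5 of Endo 5 of 9 members were called in KO, 2 higher (OTX2 and RAX) and 3 lower (SIX3, LHX2 and NPTX1), against 14.8% of genes. The calls of OTX2 (0.14 ± 0.05) and RAX (0.90 ± 0.31) were close to the threshold (adjusted p = 0.043 and 0.0412), and leaving out 1 of 20 libraries left 2 to 5 calls. In ΔATG 4 were called, HESX1 higher and SIX3, LHX2 and NPTX1 lower, against 33.8%. At day 1 NPTX1 had 0.137 and 0.115 CPM in KO and 0.314 and 0.123 CPM in ΔATG, against 1.24 and 1.31 CPM in WT. Its difference over the 5 days was -2.22 ± 0.64 in KO, lost without the day 2 WT library a, and -1.95 ± 0.64 in ΔATG, lost without that library and with the replicate block (adjusted p = 0.0538). By single day from 1 to 5 the calls numbered 1, 2, 1, 1 and 1 in KO, against 3.28%, 4.65%, 3.7%, 4.02% and 5.48% of genes, and 4, 3, 2, 2 and 2 in ΔATG, against 14.6%, 13.7%, 15.9%, 14.8% and 18.2%. The difference depended on the day for 0 of 9 members in KO (2.95% of genes) and 2 of 9 in ΔATG (16.2%). In KO SIX3 and FEZF1 had an unadjusted p under 0.05 in that test, and the share of all genes at that threshold was not taken. Between ΔATG and KO 2 members were called, HESX1 higher (0.38 ± 0.09) and LHX2 lower, against 18.4% of genes. OTX2 (-0.13) was not called in that fit but was called lower with the replicate block, limma voom, the DESeq2 Wald test, DESeq2 size factors and a fit of the compared groups only (adjusted p between 0.00436 and 0.0427). The difference depended on the day for 1 of 9, SIX3 (7.93% of genes). Mesoderm markers were lower beside SIX3 in this protocol as well, 6 of 8 in KO and 8 of 8 in ΔATG over the 5 days, while of 10 endoderm and organizer markers 3 were higher and 1 lower in KO and 3 higher and 6 lower in ΔATG.

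**Figure D4:**
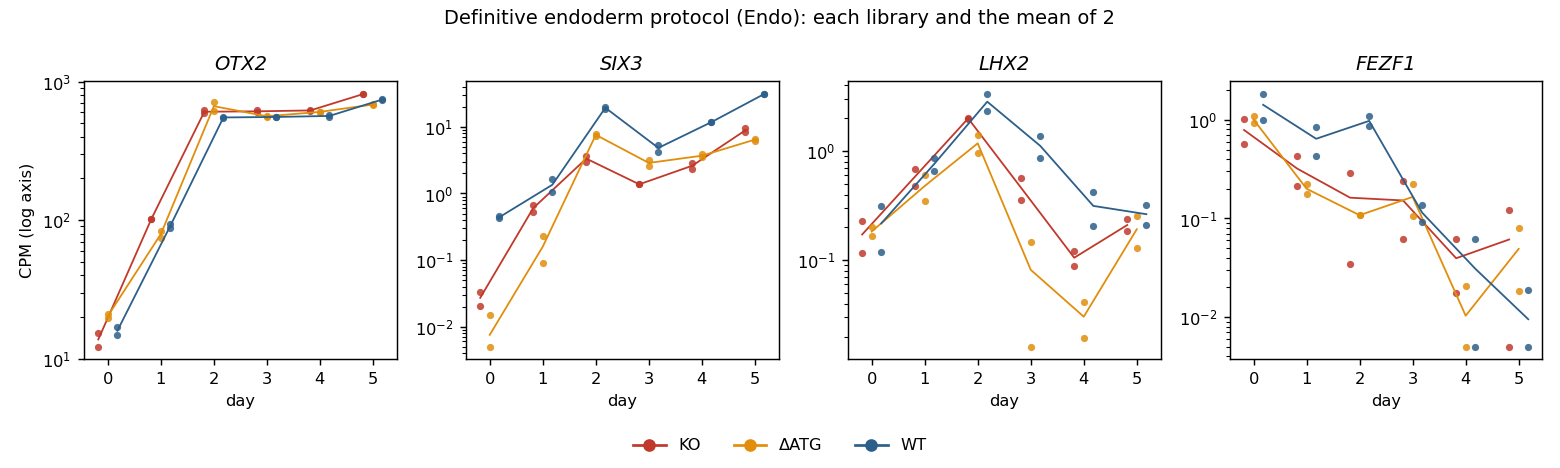
CPM (log axis, 0 drawn at 0.005) of OTX2, SIX3, LHX2 and FEZF1 by day of Endo in KO (red, left), ΔATG (orange, middle) and WT (blue, right); points are libraries, lines join the means of 2. The lines of OTX2 run together, while from day 2 SIX3 lies lower in both edited lines (day 5: 8.26 and 9.50 CPM in KO, 6.67 and 6.22 in ΔATG, 31.1 and 31.5 in WT).

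In the overexpression arm the levels of LNCPRESS1 did not always follow the labels, so libraries are named by their labels. At the early stage LNCPRESS1 measured 32.3 to 53.8 CPM in those labelled lncPRESS1, 144 to 156 CPM in lncPRESS1 ΔATG and 133 to 185 CPM in lncSIRP, against 29.0 to 30.2 CPM in vector. At the middle stage it measured 55.1 to 58.6 CPM in lncPRESS1, 87.8 to 133 CPM in lncPRESS1 ΔATG and 13.3 to 13.7 CPM in lncSIRP, against 36.3 to 47.8 CPM in vector. At the late stage it measured 151 to 153, 154 to 156 and 34.9 to 35.9 CPM, against 32.6 to 32.9 CPM. The middle-stage libraries labelled lncPRESS1 and lncSIRP also stood apart: 58.1% and 60.4% of genes were called against vector there, and SOX2 was at 3.28 and 4.07 CPM in lncPRESS1 and 5.42 and 5.23 CPM in lncSIRP, against 256 and 254 CPM in vector. The 8 mesoderm markers summed to 1027 and 998 CPM in lncPRESS1 and 835 and 866 CPM in lncSIRP at that stage, against 35.2 and 28.0 CPM in vector. Results that rest on these libraries are given with and without them. Against vector, 0.412%, 26.3% and 10.8% of genes were called at the early stage in lncPRESS1, lncPRESS1 ΔATG and lncSIRP, 7.36% at the middle stage in lncPRESS1 ΔATG, and 22.6%, 21.1% and 21.4% at the late stage in the 3 constructs.

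NPTX1 was higher in lncPRESS1 ΔATG than in vector at the early and middle stages. At the early stage NPTX1 had 77.9 and 75.1 CPM in lncPRESS1 ΔATG, 2.91 and 2.29 CPM in lncPRESS1 and 2.66 and 2.38 CPM in lncSIRP, against 3.20 and 2.97 CPM in vector. At the middle stage lncPRESS1 ΔATG still lay above, with 16.4 and 33.0 CPM against 4.54 and 3.32 CPM in vector. By the late stage its 5.30 and 4.32 CPM against 3.14 and 3.34 CPM were not called. The difference was 4.63 ± 0.26 at the early stage (adjusted p = 1.04e-08), 2.66 ± 0.25 at the middle and 0.57 ± 0.31 at the late stage (adjusted p = 0.217). At the late stage the other constructs differed from vector by similar amounts, 0.65 ± 0.31 in lncPRESS1 and 0.79 ± 0.31 in lncSIRP, not called by edgeR, though the DESeq2 Wald test called lncSIRP (adjusted p = 0.0163). The vector libraries of this arm held far less NPTX1 than the 609 and 451 CPM of WT at day 0 in the other arm, a gap between separately scaled arms that was not tested.

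OTX2 was higher in all 3 constructs at the late stage, with 16.9 and 22.5 CPM in lncPRESS1, 18.4 and 21.1 CPM in lncPRESS1 ΔATG and 18.4 and 22.1 CPM in lncSIRP, against 7.68 and 8.08 CPM in vector. No library overlapped with vector (1.32 ± 0.18, 1.33 ± 0.18 and 1.37 ± 0.18), and the constructs overlapped among themselves, whether or not LNCPRESS1 was raised. At the early stage OTX2 was called in lncPRESS1 ΔATG and in neither other construct by edgeR (0.82 ± 0.20; adjusted p = 0.057 without vector a). HESX1 at the late stage had 6.86 and 8.26 CPM in lncPRESS1 ΔATG, 1.15 and 1.81 CPM in lncPRESS1 and 1.93 and 1.30 CPM in lncSIRP, against 2.23 and 2.36 CPM in vector, and was called higher in lncPRESS1 ΔATG (1.72 ± 0.21) and in neither other construct; the constructs were not tested against each other. FEZF1 was lower in lncPRESS1 ΔATG at each stage, for example 3.13 and 4.35 CPM at the late stage against 6.43 and 7.15 CPM in vector (-0.85 ± 0.21; lost at this stage without vector b or lncPRESS1 ΔATG a). Markers of other cell types moved beside these members in lncPRESS1 ΔATG. Over the 3 stages 10 of 10 endoderm and organizer markers were lower (median -3.08), with sums of 14.3 to 42.8 CPM over its 6 libraries, against 100.0 to 161 CPM in vector, and at most 1 marker at 0 counts in a group. Of 8 mesoderm markers 4 were lower and none higher, and of 8 pluripotency markers 2 were higher and 2 lower. Their part in the members' differences was not tested.

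SIX3 was lower in lncPRESS1 ΔATG at the middle stage, at 0.402 and 0.423 CPM against 1.83 and 1.34 CPM in vector (-1.92 ± 0.48), and in lncSIRP at the early stage, at 0.780 and 0.536 CPM against 2.26 and 2.22 CPM (-1.78 ± 0.41); both calls were lost when 1 library was left out. The lncPRESS1 libraries of the early stage disagreed with each other for SIX3, at 2.57 and 0.649 CPM. In the middle-stage libraries that stood apart, LHX2 had 1.81 and 3.31 CPM in lncPRESS1 and 0.786 and 0.865 CPM in lncSIRP, against 0.0366 and 0.0315 CPM in vector. FEZF1 had 0.171 and 0.0272 CPM in lncPRESS1 and 0.0605 and 0.105 CPM in lncSIRP there, against 4.82 and 6.20 CPM in vector.

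Averaged over the 3 stages, 6 of 8 tested members were called in lncPRESS1 (2 higher, 4 lower; 45.8% of genes), 5 in lncPRESS1 ΔATG (3 higher, 2 lower; 25.8%) and 5 in lncSIRP (2 higher, 3 lower; 50.1%). SIX6 is among those called in lncPRESS1 and lncSIRP, on 0 to 3 counts per library in lncPRESS1 and 0 or 1 in lncSIRP, against 1 to 10 in vector. SIX6 passed the filter on low counts through 1 early vector and 1 early lncPRESS1 ΔATG library. LHX2 passed it mainly through the middle-stage lncPRESS1 and lncSIRP libraries. Calls of SIX6 and LHX2 within these counts are therefore no evidence of a difference. An alternative without the middle stage was chosen after seeing the data, and the shares of genes above do not belong to it. In that alternative OTX2 was called in lncPRESS1 (0.77), and OTX2 (0.92) and SIX3 (-0.96, not among the 5) in lncSIRP. In lncPRESS1 ΔATG HESX1, NPTX1 and OTX2 were called higher and FEZF1 lower. NPTX1 in lncPRESS1 was at 0.21 (edgeR adjusted p = 0.584) in place of -0.70. Over the 3 stages the calls of NPTX1 in lncPRESS1 (without its middle library a), of SIX6 in both and of LHX2 in lncSIRP were each lost when 1 library was left out. In the vector libraries themselves no member was called between the late and early stages by edgeR (0.129% of genes), and 1 by the DESeq2 Wald test. By edgeR OTX2 alone had an unadjusted p under 0.05, and the share of all genes at that threshold was not taken.

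**Figure D5:**
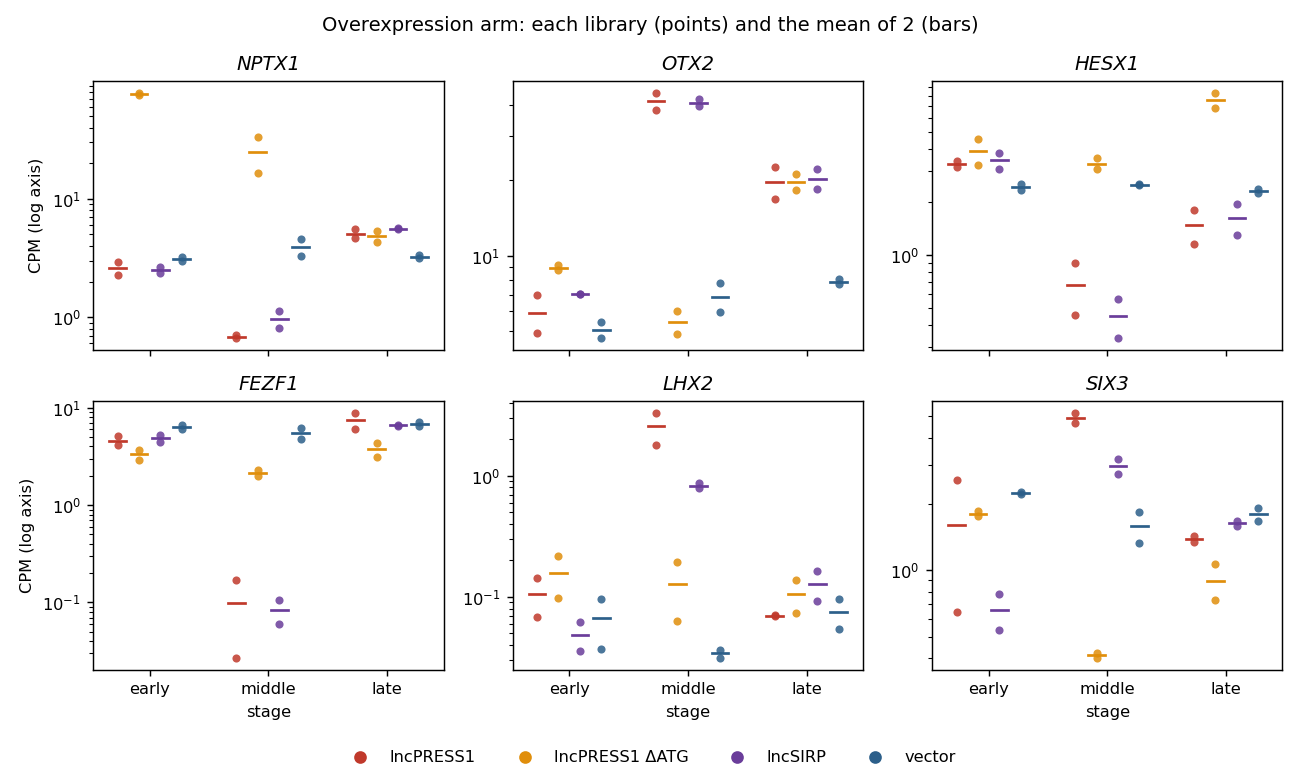
CPM (log axis) of 6 members by stage in libraries labelled lncPRESS1 (red), lncPRESS1 ΔATG (orange), lncSIRP (purple) and vector (blue), left to right; points are libraries and bars the means of 2. NPTX1 is high in the early lncPRESS1 ΔATG libraries (77.9 and 75.1 CPM, against 3.20 and 2.97 in vector), and OTX2 is above vector in all 3 constructs at the late stage.

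Across the 48 group means of the differentiation arm the members did not follow one pattern. The closest pairs in log2 CPM were FEZF1 with FEZF2 (Pearson r = 0.785), HESX1 with FEZF1 (0.741) and HESX1 with RAX (0.691), and the most opposed were OTX2 and NPTX1 (-0.512). The groups share lines, protocols and days, so these values are descriptions. The genes most like each member over the 48 groups were LINC01833, ENSG00000225156 and SIX3-AS1 for SIX3 (r = 0.955, 0.907 and 0.877), of which LINC01833 and SIX3-AS1 are its neighbours. The position of ENSG00000225156 was not looked up. FEZF1-AS1 (0.959), LHX5-AS1 (0.944) and CDH9 (0.931) were most like FEZF1, the first of these being the gene whose reads may not be separate from it. For OTX2 they were APBB1 (0.949), TCTN2 (0.936) and ZC3H12B (0.935), for FEZF2 SLC6A8 (0.932), SORCS2 (0.929) and LINC03025 (0.921), and for NPTX1 MAP1LC3C (0.924), ENSG00000287560 (0.914) and MED14OS (0.903). HESX1 was most like CYP26C1 (0.883), CREB3L3 (0.871) and ZNF804B (0.864). The values were lower for SIX6 (DUXB 0.834, FOXD4L5 0.817, ENSG00000290654 0.792), RAX (ENSG00000254695 0.825, SH2B1 0.795, HERC2P7 0.794) and LHX2 (RHAG 0.670, MECOM 0.615, RHOH 0.570).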

How the data were processed

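RNA of 120 libraries was measured by sequencing of polyadenylated RNA with a stranded kit, per the labels' protocols. The authors deposited 1 table of estimated counts, scaled for gene length, for 62703 genes, and the build is GRCh38 per the submitters' processing notes. The aligner, quantifier, annotation and strand setting are not given in the sources here. Rounded counts were tested with edgeR 4.0.16 (R 4.3.3; quasi-likelihood F test, TMM scaling, filterByExpr by group, 1 mean per group), each arm on its own: 25821 genes with 48 residual degrees of freedom, and 23300 genes with 12. p-values were adjusted by Benjamini-Hochberg within each comparison and called below 0.05; the code was tested on simulated data. Values over days 1 to 5, or over stages, are means of the single-day or single-stage differences. CPM values carry counting error from totals of 38298603 to 71219834 counts, or 40113893 to 65466595 in the overexpression arm, which makes genes below about 0.1 CPM imprecise.

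The members and all lists were chosen with earlier results of these data known. All members are named, with the 3 genes most like each (Pearson r of mean log2 CPM over 48 groups) and, from each other list, up to 2 called genes at each end of the fold changes; exceptions are marked, and 1 gene that the rule names is not reported here. Letters a and b were checked as a pairing. Deviations of same-lettered libraries correlated above 0.1 in 3 of 3 pairs of groups at day 0 (0.371 to 0.743) and 15 of 15 in BMP4 (0.179 to 0.643), but in 0 of 15 in SMADi, 1 of 15 in Endo and 4 of 18 in the overexpression arm, and the labels do not say what a letter marks. Alternatives were DESeq2 size factors, no filter, unrounded counts, a replicate block, limma voom 3.58.1, the DESeq2 1.42.0 Wald test, fits of the compared groups only, and leaving out each library. In none of the 60 groups did libraries a and b agree within sampling noise; libraries of different groups were not compared in this way.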

Additional observations from a re-analysis of the deposited data

Results flagged for a closer look

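The difference of the edited lines from WT was unequal in BMP4 and SMADi for several members, by a test of the difference itself (edgeR quasi-likelihood F test of the averaged contrasts over days 1 to 5, BMP4 minus SMADi, on the log2 scale). In KO it was 4.02 for SIX3, 3.61 for RAX, 2.99 for NPTX1, 2.34 for HESX1, 1.91 for FEZF1 and -0.26 for OTX2. In ΔATG it was 3.69 for SIX3, 2.59 for RAX, 2.09 for NPTX1, 1.84 for HESX1, 1.78 for FEZF1 and -0.24 for OTX2. The ΔATG value of SIX6, 6.81, is no evidence of a difference, since SIX6 was tested only because it is high in WT libraries of SMADi; it rests on groups near 0 counts, and its call was lost without the day 2 BMP4 library a or the day 3 BMP4 library b of ΔATG. The comparisons with KO and with ΔATG share the WT libraries.

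The difference also depended on the day within a protocol, by a joint test of the 5 days. This held for 9 members in SMADi (8 without SIX6) and 5 in BMP4 for KO against WT. For ΔATG against WT it held for 9 in SMADi (8 without SIX6), 4 in BMP4 and 2 in Endo. For ΔATG against KO it held for 3 in SMADi, 2 in BMP4 and 1 in Endo.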

How the results depend on the processing

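With the replicate block, calls at day 0 numbered 1 for KO against WT, 0 for ΔATG against WT and 2 for ΔATG against KO, and those over BMP4 for ΔATG against KO numbered 1; no other count moved by over 1.5 times with the block. Fits of the compared groups only gave 0 calls in each day 0 comparison and 1 for the vector's late against early stage. The DESeq2 Wald test gave 2 calls for ΔATG against WT at day 0 and 1 for the vector's late against early stage, limma voom 2 for ΔATG against KO at day 0, and no filter 3 for KO over Endo. Using the early and late stages only, chosen after seeing the data, gave 1 call in lncPRESS1 and 2 in lncSIRP, of which SIX3 was not called over the 3 stages, and turned NPTX1 in lncPRESS1 to 0.21.

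Counts in this section include SIX6, and those of the overexpression arm also LHX2. Leaving out 1 library at a time gave ranges of 5 to 6, 9 to 9 and 5 to 6 calls for the WT courses of BMP4, SMADi and Endo. Day 0 ranges were 0 to 2 for KO and 0 to 1 for ΔATG against WT, and 0 to 1 for ΔATG against KO. Over days 1 to 5 of BMP4, SMADi and Endo they were 5 to 5, 7 to 8 and 2 to 5 for KO, 5 to 5, 6 to 8 and 3 to 4 for ΔATG, and 0 to 1, 1 to 2 and 1 to 3 for ΔATG against KO. The unequal differences of BMP4 and SMADi numbered 6 to 6 in KO and 6 to 7 in ΔATG. The overexpression ranges were 5 to 7 for lncPRESS1, 5 to 6 for lncPRESS1 ΔATG, 3 to 5 for lncSIRP and 0 to 0 for the vector's stages. SIX3 at day 5 of BMP4 in ΔATG against KO (-0.51) ranged from -0.88 to 0.014, which was the value without KO library a. A lone library left in a group was taken to vary like the other groups. With 2 libraries a group, members below about 0.1 CPM give no reliable fold.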

Other observations

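Genes of more posterior neural tissue and of the neural crest were measured beside the members. At day 5 of BMP4, 1 of 17 tested midbrain, hindbrain and spinal cord genes was higher and 8 were lower in each edited line than in WT, with a median log2 fold change of -1.23 in KO and -0.45 in ΔATG, beside 0.00 over all genes. HOXB1, a hindbrain homeobox gene, was lowest in KO (-3.21 ± 0.34), and CDX2, a homeobox gene of posterior tissue and trophoblast, was lower in both lines (-2.68 ± 0.40 in KO and -1.85 ± 0.37 in ΔATG). The gene that was higher was EGR2, a zinc finger gene of the hindbrain (0.82 ± 0.22 in KO and 1.03 ± 0.21 in ΔATG). Of 10 antagonists of Wnt and BMP, 4 were higher and 3 lower in KO and 4 and 2 in ΔATG (median -0.15 and -0.22). SFRP1, a secreted Wnt antagonist, was among those higher in both (1.30 ± 0.11 in KO and 0.96 ± 0.11 in ΔATG).

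At day 5 of SMADi the paired box genes of the neural crest moved apart. PAX3 was higher in both edited lines (3.65 ± 0.21 in KO and 2.68 ± 0.21 in ΔATG) and PAX7 lower (-2.92 ± 0.18 in KO and -3.05 ± 0.19 in ΔATG). FOXD3, which marks pluripotent cells as well as neural crest, was higher (4.92 ± 0.38 in KO and 2.93 ± 0.52 in ΔATG), and lower in ΔATG than in KO (-1.99 ± 0.25). All of these genes were called by edgeR's quasi-likelihood test.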
